A study of Mus musculus with 12 samples.

Results

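Endothelial identity genes are the receptors, junction proteins, transcription factors and secreted proteins by which endothelial cells, the lining of blood and lymph vessels, are recognised. A set of 50 such genes was followed in mouse mesenchymal stem/stromal cells (MSCs). A gene was a member if the array held a probeset (a set of probes that report 1 transcript) annotated to its symbol alone, which was the case for 50 of 50. They are 50 of the 17097 genes that could be named in this way and carry 85 of the 45037 probesets. By role, 17 are receptors or a receptor ligand, 12 are junction and surface proteins, 13 are transcription factors and 8 are enzymes, trafficking proteins or secreted proteins.

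The RNA of 4 groups was hybridised to 12 Affymetrix arrays (MG-430 PM) to ask how TGF-β acts on MSCs with and without the kinase p38α. The MSCs came from mice that carry p38-lox/lox and Ub-Cre-ERT2 (floxed alleles of Mapk14, the gene of p38α, and a tamoxifen-inducible Cre recombinase under a ubiquitin promoter), which both genotypes share. Per the study's methods the cells were immortalized, and p38α∆ MSCs were made from them in culture with 4-hydroxytamoxifen, so the 2 genotypes do not stem from separate animals. The labels give the background strain FVB/NJ for every array, and the study's methods name another strain. The groups were untreated WT MSCs (labelled CTRO, n = 4), WT MSCs with TGF-β (CTRO+TGFb, n = 3), untreated p38α∆ MSCs (KO, n = 2) and p38α∆ MSCs with TGF-β (KO+TGFb, n = 3). Cells were kept in 0.5% FBS, and treated cells received 5 ng/ml TGF-β for 20 h. The labels do not say that arrays of a group come from separate cultures, so p-values measure the spread between these arrays, and their number limits the precision.

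Endothelial cells are held together by junctions built from VE-cadherin (Cdh5), PECAM-1 (Pecam1) and claudin-5 (Cldn5), and they read their surroundings through receptors for VEGF (Kdr, Flt1, Flt4) and angiopoietin (Tek). Transcription factors of the ETS family (Erg, Fli1, Ets1, Ets2) and the SOXF family (Sox7, Sox17, Sox18) set up and maintain this program. MSCs are perivascular connective tissue cells that lack most of it, and TGF-β, which signals through Smad proteins, is known to act on both cell types.

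Levels are log2 values as normalized with RMA, so a difference of 1 between arrays is a doubling. The value of a probeset also depends on its probes, so a level is given as a place among all genes and not as an amount of RNA, and genes are not ranked against each other by it. Differences are log2 fold changes from 1 limma fit of all 12 arrays with 1 probeset per gene, in which arrays of the same number in their title were treated as related. They can therefore differ a little from the difference of the group means. The threshold for passing was an adjusted p under 0.05 by the Benjamini-Hochberg method over 17097 genes. The 4 arrays numbered 1, 1 in each group, stand apart from the other 8 along a component with 51.2% of the variance. None of the 6 Mapk14 probesets passed between the genotypes, but their position relative to the floxed exons is not given in the sources read here, so the labels cannot be checked by them.

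Among the members 8 passed with TGF-β in at least 1 genotype, and RefSeq start sites on GRCm38.p6 were at hand for 4 of them. The 250 bases before the start of these 4 are shown because these genes are among those that passed. Each runs 5′ to 3′ on the strand of its gene, and capitals mark CAGAC, the short Smad box, or its reverse complement.
Ets2 (chr16:95702157-95702406, + strand): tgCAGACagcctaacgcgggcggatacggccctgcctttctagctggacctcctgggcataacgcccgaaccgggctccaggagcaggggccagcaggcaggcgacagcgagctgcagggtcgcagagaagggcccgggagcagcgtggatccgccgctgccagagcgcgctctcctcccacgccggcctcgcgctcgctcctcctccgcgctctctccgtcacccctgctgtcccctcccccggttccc
Erg (chr16:95586594-95586843, − strand, the first and farthest upstream of 3 start sites): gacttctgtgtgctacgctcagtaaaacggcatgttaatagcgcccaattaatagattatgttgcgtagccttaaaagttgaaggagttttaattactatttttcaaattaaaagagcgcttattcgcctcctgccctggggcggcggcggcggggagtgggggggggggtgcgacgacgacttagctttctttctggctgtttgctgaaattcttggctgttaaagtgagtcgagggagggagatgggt
Apln (chrX:48034854-48035103, − strand): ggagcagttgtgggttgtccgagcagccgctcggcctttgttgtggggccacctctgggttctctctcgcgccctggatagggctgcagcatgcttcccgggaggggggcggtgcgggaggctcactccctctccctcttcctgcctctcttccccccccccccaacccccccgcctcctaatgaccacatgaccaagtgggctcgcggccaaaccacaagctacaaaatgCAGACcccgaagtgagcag
Calcrl (chr2:84425267-84425516, − strand): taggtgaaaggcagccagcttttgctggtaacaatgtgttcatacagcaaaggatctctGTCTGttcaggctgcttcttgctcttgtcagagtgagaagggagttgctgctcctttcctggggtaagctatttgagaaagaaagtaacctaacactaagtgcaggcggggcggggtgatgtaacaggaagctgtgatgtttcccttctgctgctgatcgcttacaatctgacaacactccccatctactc
CAGAC on either strand was found once before Ets2, Apln and Calcrl and not before this start of Erg, though once before each of its other 2 starts. It is a common word, present in 42.2% of the 32851 RefSeq promoters of this length and in 19 of 38 promoters of the members. The AP-1 word TGANTCA, which reads the same on both strands, was in none of the 38 and in 6.75% of all promoters. The ETS core GGAA was present 1 time before Ets2, 3 times before Apln and 3 times before Calcrl, was not found before this start of Erg, and is in 93.4% of all promoters.

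Most endothelial identity genes lay low in all 4 groups. The mean level was below the median of all genes (4.80) for 36 of 50 members and below the lower quartile (3.59) for 17. On single arrays the median of the members was 3.73 to 3.99 and that of all genes 4.71 to 4.84, and 33 to 36 members lay below the array's own median. Counting every probeset, 65 of 85 were below 4.80, and 34 members had no probeset above it. For Ece1, which activates endothelin, the probeset used lay at 4.00 and another at 7.55. For Flt1, a VEGF receptor that also acts as a decoy, they lay at 3.50 and 4.86.

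**Figure D1:**
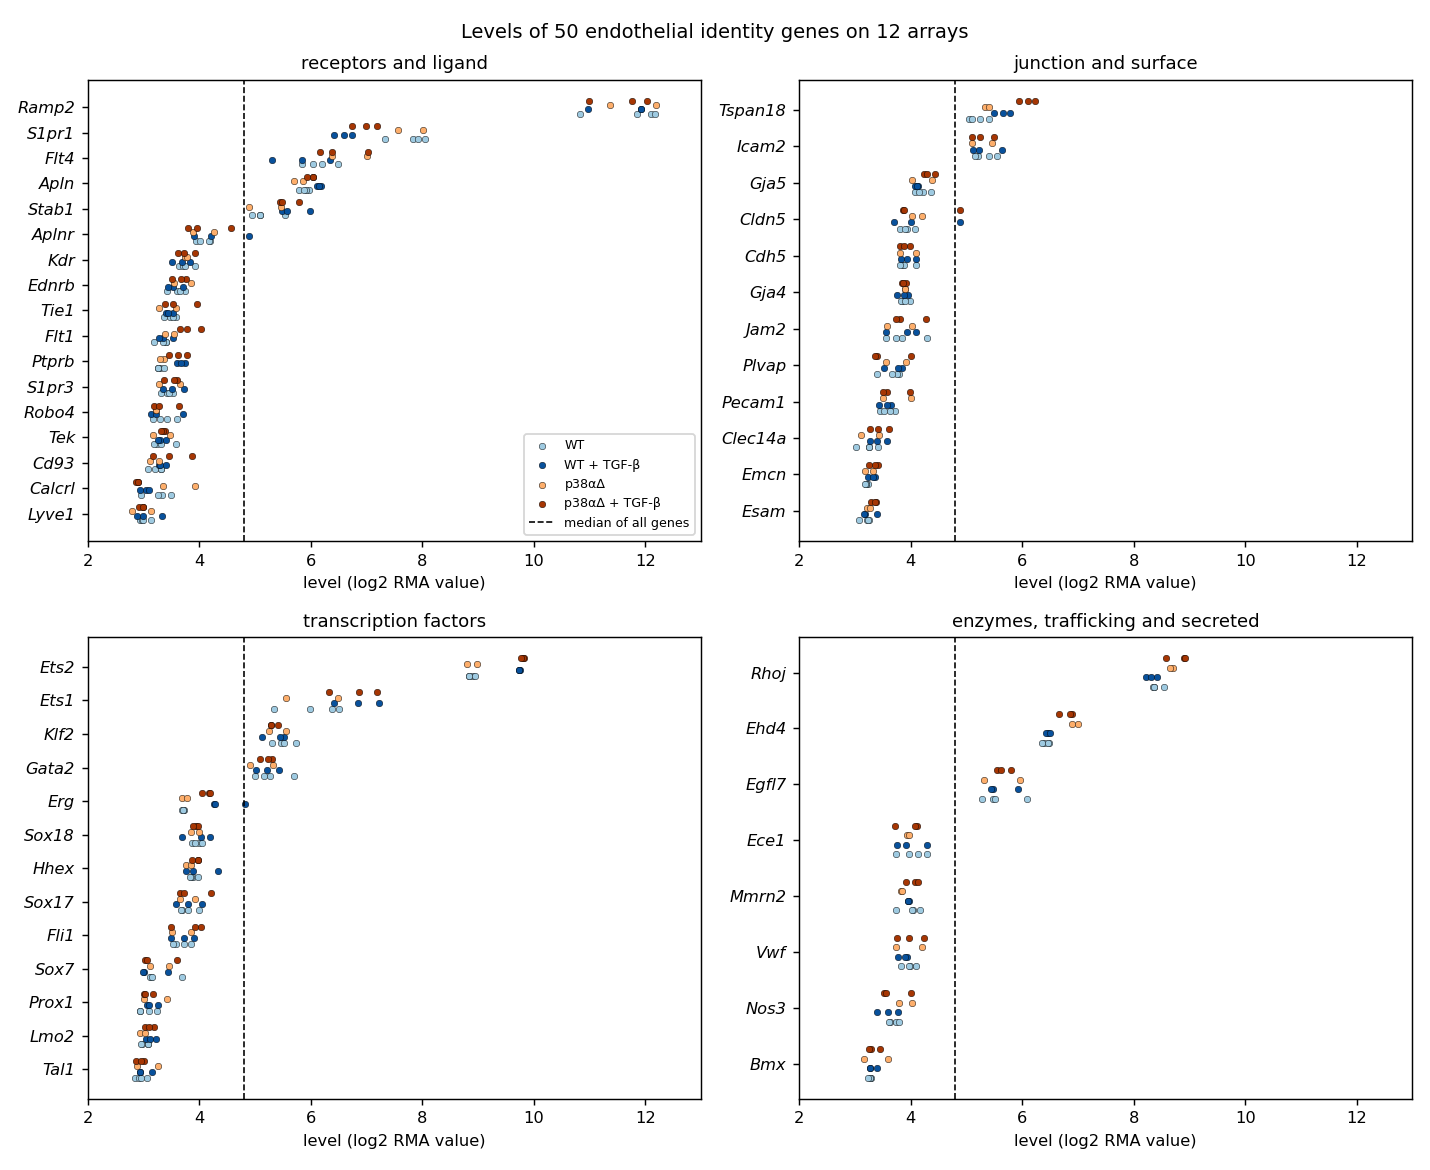
Level of each of the 50 members (horizontal axis, log2 RMA value), 1 point per array, in 4 panels by role, with color for the group. The dashed line is the median of all genes (4.80), and 36 members lie below it on average, among them Pecam1, Cdh5, Tie1, Tek and Kdr.

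Most of 18 genes taken as defining mature endothelium, picked with results known, were low in every group. Low levels did not extend to a wider list of endothelial genes, described below. Of its 47 measured genes 26 were below the median of all genes (55.3%) and 21 above it. Of 18 defining markers, 16 were below the median of all genes, the exceptions being Icam2, an adhesion molecule for leukocytes (5.31), and Egfl7, a secreted protein of vessel tubes (5.62). Pecam1 read 3.72, 3.63, 3.45 and 3.53 in untreated WT MSCs, 3.65, 3.44 and 3.58 with TGF-β, 4.01 and 3.50 in p38α∆ MSCs, and 3.98, 3.58 and 3.51 in p38α∆ MSCs with TGF-β. Cdh5 read 4.09, 3.87, 3.88 and 3.81 in WT MSCs, 4.10, 3.84 and 3.94 with TGF-β, 4.09 and 3.82 in p38α∆ MSCs, and 3.99, 3.81 and 3.89 with TGF-β. For both genes the groups overlapped, and in each group the highest value was that of the array numbered 1.

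Tie1, an orphan receptor that works with Tek, read 3.59, 3.48, 3.36 and 3.53 in WT MSCs, 3.52, 3.41 and 3.44 with TGF-β, 3.58 and 3.27 in p38α∆ MSCs, and 3.97, 3.53 and 3.38 with TGF-β. Tek, the angiopoietin receptor, read 3.58, 3.24, 3.19 and 3.32, then 3.30, 3.40 and 3.26 with TGF-β, and 3.48 and 3.16, then 3.39, 3.36 and 3.32 with TGF-β in p38α∆ MSCs. In none of the 4 pairwise comparisons did the groups separate for either gene. Kdr, the main VEGF receptor, read 3.93, 3.65, 3.70 and 3.75 in WT MSCs, 3.83, 3.51 and 3.70 with TGF-β, 3.74 and 3.77 in p38α∆ MSCs, and 3.73, 3.62 and 3.92 with TGF-β. Nos3, the endothelial nitric oxide synthase, read 3.62, 3.62, 3.73 and 3.80 in WT MSCs, 3.77, 3.40 and 3.60 with TGF-β, 4.03 and 3.80 in p38α∆ MSCs, and 4.01, 3.53 and 3.56 with TGF-β. Both genes also overlapped between treated and untreated arrays.

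**Figure D2:**
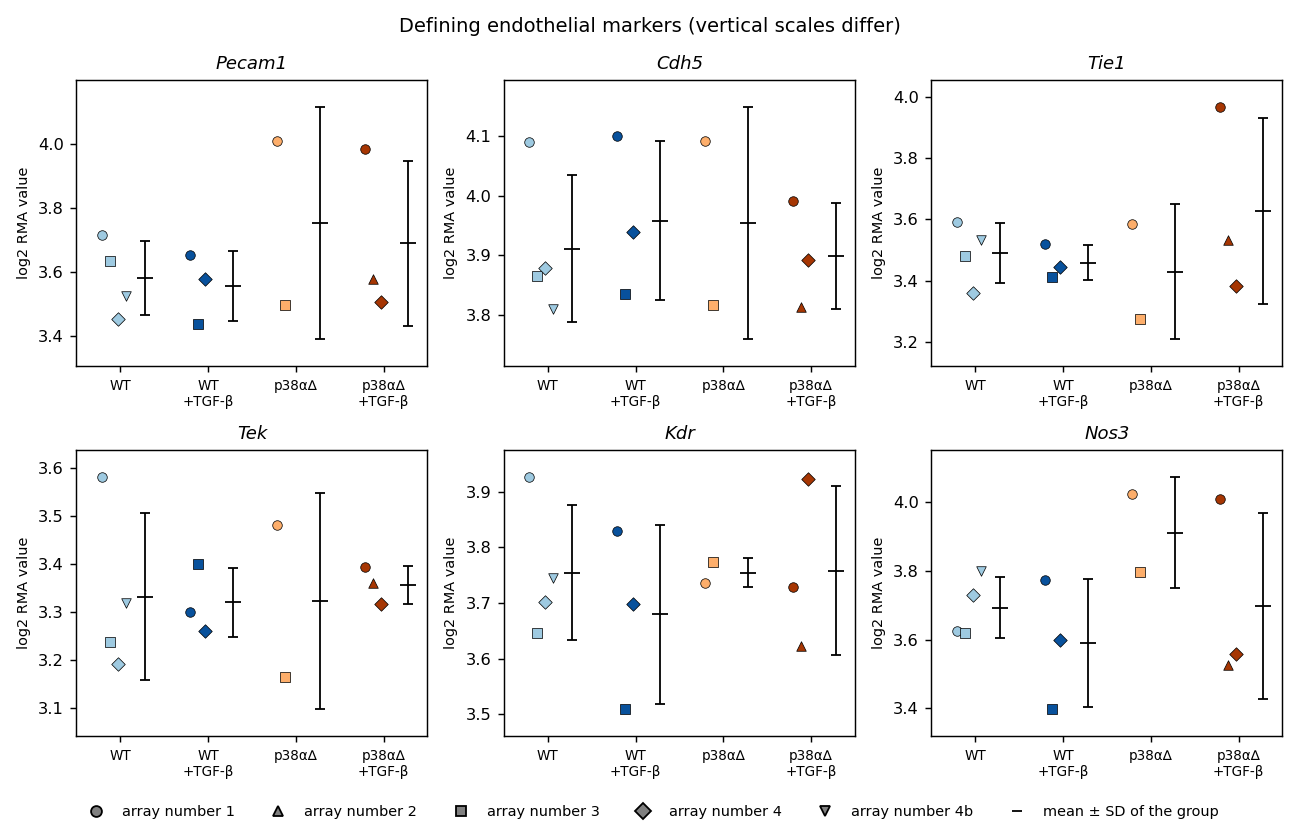
Log2 RMA values (vertical axis, scales differ) of 6 defining endothelial markers in the 4 groups, with 1 symbol for each array (its shape gives the number in the title) and the group mean ± SD beside the symbols. The groups overlap for Pecam1, Cdh5, Tie1, Tek and Kdr, and Pecam1 and Cdh5 are highest on the array numbered 1 in each group.

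None of the 18 defining markers passed in any of the 5 contrasts in limma, and none had an unadjusted p under 0.05. With TGF-β in WT MSCs 4.51% of all genes passed higher and 5.32% lower, between the genotypes 0.38% passed with TGF-β and none without, and 4.94% to 21.1% of all genes had an unadjusted p under 0.05. The 18 were picked from the members with results known, so nothing particular to them is read from these counts. The VEGF receptors Flt1 and Flt4, described below, are not among them. The 8 members that passed with TGF-β, Erg and Ptprb among them, were left out as well. That none of the 18 passed therefore follows from the choice. For Kdr the 95% confidence interval of the TGF-β change was −0.26 to 0.12 in WT MSCs and −0.26 to 0.25 in p38α∆ MSCs. For Cdh5 it was −0.11 to 0.19 and −0.25 to 0.15, and for Pecam1 −0.26 to 0.17 and −0.32 to 0.26. These intervals are for the values of the probesets. The files give no detection calls, and at values this low a change of the transcript can be understated, so no size of change in RNA is bounded by them. Markers of cell types foreign to the culture also lay low, and 10 of 11 measured leukocyte markers and 9 of 10 epithelial markers were below the median of all genes. Of 17 measured markers of MSCs and pericytes 11 were above it, among them Col1a1 (12.12), Vim (11.19) and Pdgfrb (9.26). The other 6 were below it: Eng (4.60), Mcam (4.57), Acta2 (3.97), Rgs5 (3.67), Thy1 (3.38) and Lepr (3.35). The study reports CD105, the protein of Eng, on its MSCs by flow cytometry. A level below the median therefore does not show that a gene is off. In bulk RNA a few cells with a high level and many cells with a low level cannot be told apart.

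The other members below the median were of all roles. Among receptors they were Robo4, Cd93, S1pr3, Ednrb, Aplnr, Lyve1, Ptprb, Calcrl and Flt1, among junction and surface genes Esam, Emcn, Clec14a, Plvap, Jam2, Gja4, Gja5 and Cldn5, and among transcription factors Tal1, Lmo2, Prox1, Sox7, Sox17, Sox18, Fli1, Hhex and Erg. Vwf (3.95), the clotting factor stored in endothelial granules, Mmrn2 (3.97), a matrix glycoprotein, Bmx (3.31), a tyrosine kinase, and Ece1 completed them. Claudin-5 (Cldn5) reached 4.89 on both TGF-β-treated arrays numbered 1 and lay between 3.71 and 4.21 on the other 10. In all, 16 members, among them Pecam1, Cdh5, Cldn5, Tie1, Icam2, Egfl7, Klf2 and Gata2, were highest on the array numbered 1 in every group (32%, against 25.1% of all genes), and S1pr1, Ets1 and the probeset used for Ramp2 were lowest on it in every group (6%, against 20.2%).

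The 14 members above the median came from all 4 roles. Ramp2 is counted among them by the probeset used, and 13 remain without it. They were the signalling genes S1pr1, Flt4, Apln and Stab1, the surface genes Tspan18 and Icam2, the transcription factors Ets2, Ets1, Klf2 and Gata2, and Rhoj, Ehd4 and Egfl7. Klf2, which flow induces in vessels, was at 5.41 and Gata2, a factor of blood and endothelial progenitors, at 5.22, with TGF-β changes of −0.15 and −0.09 in WT MSCs that did not pass. The other Gata2 probeset, at 6.20, changed by 0.27 in WT MSCs and did not pass either. Ramp2, the partner of Calcrl in the adrenomedullin receptor, read 10.83 to 12.20 with the probeset used, 8.39 to 10.73 with another and 3.29 to 3.66 with the third. Another 4 probesets are annotated to Ramp2 and the nuclear noncoding RNA Malat1 together. The probeset of Malat1 alone read 9.99 to 10.68 on the arrays numbered 1 and 11.45 to 11.89 on the others, and the probeset used for Ramp2 split the same arrays, with 10.83 to 11.36 and 11.77 to 12.20. Over the 12 arrays, r with this Malat1 probeset was 0.993 for the Ramp2 probeset used, 0.993 for the second and 0.07 for the third. Whether the probeset used measures Ramp2 was not tested, and its level is not read as that of Ramp2, for which the third lay at 3.44, below the median.

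With TGF-β in WT MSCs, 6 endothelial identity genes rose, 1 fell and 43 did not pass. The risers were the ETS factors Ets2, Ets1 and Erg, the tetraspanin Tspan18, the phosphatase Ptprb and the peptide ligand Apln, and the sphingosine 1-phosphate receptor S1pr1 fell. This is 12% of members higher, against 4.51% of all genes, and 2% lower, against 5.32%. An unadjusted p under 0.05 was seen for 8 members (16%), against 21.1% of all genes, and the median change of the members was 0.03 (all genes −0.01). By role, 3 of 13 transcription factors rose, 2 of 17 receptor and ligand genes rose and 1 fell, 1 of 12 junction and surface genes rose, and none of the 8 others passed. The count was 3 (Erg, Ets2 and S1pr1) without the WT array 3 with TGF-β, 4 (Erg, Ets2, Ptprb and S1pr1) when arrays of the same number were not treated as related, and 6 without the 4 arrays numbered 1.

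Ets2, a broadly expressed ETS factor that acts downstream of MAP kinases, gave the clearest rise. It read 8.92, 8.84, 8.83 and 8.95 in untreated WT MSCs and 9.76, 9.74 and 9.73 with TGF-β. The p38α∆ arrays read 8.99 and 8.80 without and 9.82, 9.80 and 9.76 with TGF-β. Every treated array lay above every untreated array of both genotypes, and treated arrays spread little. The share of all genes that TGF-β separates in this way was not counted, for Ets2 or for the members below. The log2 fold change was 0.86 (SE 0.06, adjusted p = 6.22e-06 in limma) in WT MSCs and 0.88 (SE 0.08, adjusted p = 5.20e-05 in limma) in p38α∆ MSCs. The 2 changes differed by 0.03 (95% confidence interval −0.20 to 0.25). Within WT arrays of number 1, 3 and 4 the change was 0.84, 0.90 and 0.84.

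Erg, the ETS factor most tied to endothelium, lay low before treatment. It read 3.72, 3.71, 3.70 and 3.70 in WT MSCs and 4.82, 4.27 and 4.29 with TGF-β, a rise of 0.73 (SE 0.10, adjusted p = 0.000802 in limma). Untreated p38α∆ arrays read 3.70 and 3.78 and treated ones 4.18, 4.19 and 4.05, a change of 0.40 (SE 0.14) that did not pass (adjusted p = 0.110 in limma), though it did without the treated WT array 1. For both genotypes treated and untreated arrays did not overlap. The difference between the 2 responses, −0.34 (95% confidence interval −0.72 to 0.05), did not pass either (adjusted p = 0.902 in limma). The second Erg probeset, at a mean of 4.61, changed by 0.19 in WT MSCs and 0.05 in p38α∆ MSCs and did not pass. In WT MSCs it read 4.58, 4.46, 4.51 and 4.57 untreated and 4.80, 4.66 and 4.69 with TGF-β. Its direction was thus the same at a smaller size, while the call rests on 1 of 2 probesets. Fli1, the closest relative of Erg, stood at 3.72 and its changes of 0.04 and 0.13 did not pass.

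Ets1, a further ETS factor of vessels and lymphocytes, varied between arrays of a group. It read 5.34, 6.50, 6.39 and 5.99 in WT MSCs and 6.41, 7.23 and 6.85 with TGF-β. Values in p38α∆ MSCs were 5.55 and 6.48, then 6.32, 7.18 and 6.86 with TGF-β. The groups overlap, and in each the array numbered 1 was lowest, while within number 1, 3 and 4 the change in WT MSCs was 1.07, 0.73 and 0.66. The fit gave 0.80 (SE 0.17, adjusted p = 0.012 in limma) in WT MSCs and 0.78 (SE 0.23, adjusted p = 0.0596 in limma), which did not pass, in p38α∆ MSCs. The other 3 probesets of Ets1 gave 0.17, 0.24 and 0.43 in WT MSCs and did not pass. Without the WT array 1 with TGF-β, or without array 3 of that group, the call for Ets1 was lost. In p38α∆ MSCs Ets1 passed with the array number as a fixed term, without the low genes, after a further quantile normalization, and without the untreated WT array 1 or 4.

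The remaining transcription factors did not pass with TGF-β in either genotype. Sox7, Sox17 and Sox18, the SOXF factors, changed by −0.16, 0.01 and 0.02 in WT MSCs and by 0.03, 0.10 and −0.05 in p38α∆ MSCs. Tal1 and Lmo2, which pair in blood and endothelial progenitors, gave 0.07 and 0.11 in WT MSCs. Hhex, a homeobox factor of early vessels and liver, gave 0.11, and Prox1, which specifies lymphatic endothelium, 0.08.

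**Figure D3:**
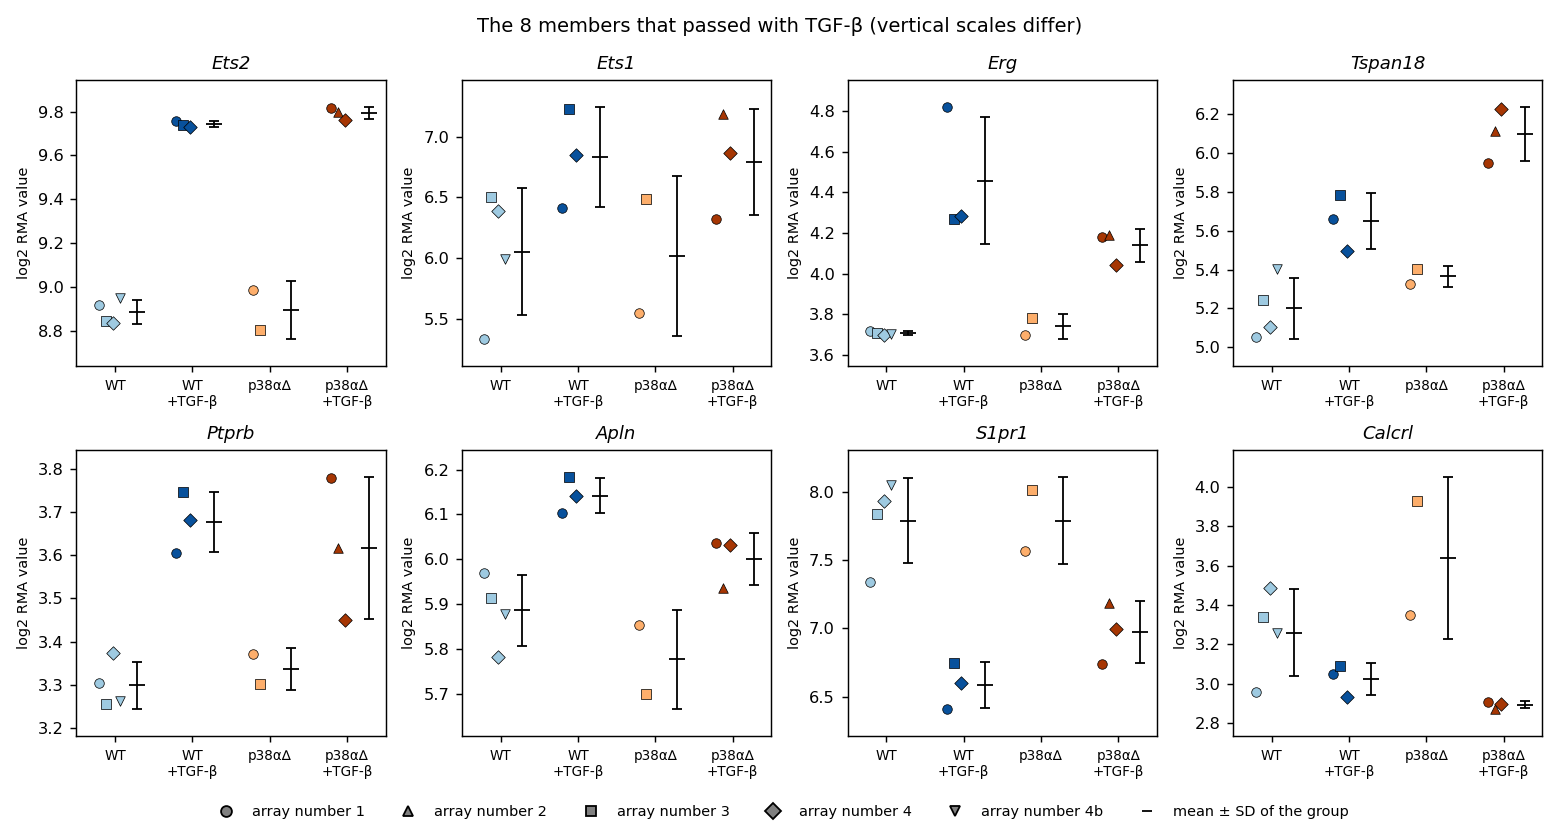
Log2 RMA values (vertical axis, scales differ) of the 8 members that passed with TGF-β in WT or p38α∆ MSCs, with 1 symbol for each array (its shape gives the number in the title) and the group mean ± SD beside the symbols. Treated arrays lie above untreated ones for Ets2, Erg, Tspan18, Ptprb and Apln and below them for S1pr1 in both genotypes, while Ets1 overlaps and Calcrl overlaps in WT MSCs. The members were chosen for passing on these arrays, and the share of all genes with such an order was not counted.

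S1pr1, the receptor by which sphingosine 1-phosphate tightens endothelial junctions, gave the largest change of any member. It read 7.34, 7.84, 7.93 and 8.05 in untreated WT MSCs and 6.41, 6.74 and 6.60 with TGF-β, a fall of −1.18 (SE 0.11, adjusted p = 5.69e-05 in limma). Without p38α it read 7.56 and 8.01 untreated and 6.74, 7.18 and 6.99 with TGF-β, a fall of −0.88 (SE 0.15, adjusted p = 0.00299 in limma). Treated and untreated arrays did not overlap in either genotype, and the 2 responses differed by 0.30 (95% confidence interval −0.11 to 0.71). S1pr3, a related receptor, lay at 3.48 and its changes of 0.10 and 0.06 did not pass.

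Calcrl, the receptor of adrenomedullin and CGRP, fell in p38α∆ MSCs. It read 3.35 and 3.93 without and 2.91, 2.87 and 2.90 with TGF-β there, a change of −0.70 (SE 0.15, adjusted p = 0.0139 in limma). In WT MSCs it read 2.96, 3.34, 3.49 and 3.26 without and 3.05, 3.09 and 2.93 with TGF-β, a change of −0.23 that did not pass (adjusted p = 0.295 in limma). The treated p38α∆ arrays lay below both untreated ones, while the WT groups overlapped. All these values are near the bottom of the scale, and the other Calcrl probeset, at 3.27, changed by −0.09 and did not pass. The call was also lost without the untreated p38α∆ array 3 (−0.50, adjusted p = 0.132 in limma) and without the treated p38α∆ array 4. The difference between the responses was −0.47 (95% confidence interval −0.90 to −0.04) and missed the threshold (adjusted p = 0.901 in limma).

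Tspan18, a tetraspanin that regulates calcium entry in endothelial cells, rose in both genotypes. It read 5.05, 5.24, 5.11 and 5.40 in WT MSCs and 5.66, 5.79 and 5.50 with TGF-β, a rise of 0.45 (SE 0.10, adjusted p = 0.00983 in limma). In p38α∆ MSCs it read 5.33 and 5.40 without and 5.95, 6.11 and 6.23 with TGF-β, a rise of 0.74 (SE 0.12, adjusted p = 0.00299 in limma). The treated p38α∆ arrays were the highest of all 12. A second of its 3 probesets, at 4.49, passed in p38α∆ MSCs as well (0.51) but not in WT MSCs (0.26), and the third lay at 3.11. The call in WT MSCs was lost without the arrays numbered 1 and without WT array 1 or 3 with TGF-β.

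Ptprb (VE-PTP), a phosphatase that restrains Tek, read 3.30, 3.26, 3.37 and 3.26 in WT MSCs and 3.61, 3.75 and 3.68 with TGF-β. This was a rise of 0.37 (SE 0.08, adjusted p = 0.0109 in limma). The p38α∆ arrays read 3.37 and 3.30, then 3.78, 3.62 and 3.45 with TGF-β, a change of 0.29 that did not pass (adjusted p = 0.129 in limma). The groups did not overlap, though all values are low, and the second probeset gave 0.27 and 0.26 and did not pass. Without WT array 3 in either WT group, or without the treated WT array 4, the call in WT MSCs was lost.

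Apln (apelin), a secreted peptide of sprouting vessels, read 5.97, 5.91, 5.78 and 5.88 in WT MSCs and 6.10, 6.18 and 6.14 with TGF-β. In p38α∆ MSCs it read 5.85 and 5.70, then 6.04, 5.94 and 6.03 with TGF-β. Treated arrays lay above untreated ones in each genotype, by little. The change was 0.25 in both, with adjusted p = 0.0354 in WT MSCs and adjusted p = 0.118 in p38α∆ MSCs (limma). The call in WT MSCs held in 8 of 21 alternative settings and was lost, among others, without any 1 of the WT arrays 3, 4 and 4b. Its receptor Aplnr lay at 4.15 and gave 0.23 and 0.12, which did not pass.

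In p38α∆ MSCs 2 members rose with TGF-β (Ets2 and Tspan18), 2 fell (S1pr1 and Calcrl) and 46 did not pass. That is 4% higher, against 3.4% of all genes, and 4% lower, against 4.92%, so both shares are near those of all genes. An unadjusted p under 0.05 was seen for 10 members (20%), against 19.7% of all genes, and the median change was 0.07 (all genes −0.0033). By role, 1 of 13 transcription factors and 1 of 12 junction and surface genes rose, 2 of 17 receptor and ligand genes fell, and none of the 8 others passed. Only 2 untreated p38α∆ arrays enter this comparison. The next smallest p-values were those of Ets1, Erg and Apln, given above.

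Stab1, a scavenger receptor of sinusoidal endothelium and macrophages, came closest to passing in WT MSCs. It read 5.54, 5.09, 4.95 and 5.09 without and 5.48, 5.57 and 5.98 with TGF-β, a change of 0.53 (SE 0.16, adjusted p = 0.0702 in limma), and the groups overlap through the untreated array 1. It passed with all arrays numbered 1 left out, without that of either WT group alone, and without the low genes. In p38α∆ MSCs it read 5.46 and 4.90, then 5.45, 5.49 and 5.80 with TGF-β. Among the receptors below, values that missed the threshold are given for WT and then p38α∆ MSCs. Cd93, a surface lectin of angiogenic vessels, changed by 0.09 in WT and 0.38 in p38α∆ MSCs, and Flt1 by 0.05 and 0.35. In p38α∆ MSCs Flt1 passed after a further quantile normalization, and Flt1 and Ptprb without the treated p38α∆ array 4. Robo4, a guidance receptor that steadies vessels, gave −0.04 and 0.21, Ednrb, an endothelin receptor, −0.06 and 0.00, and Lyve1, the hyaluronan receptor of lymphatic vessels, 0.05 and −0.02. Flt4 gave −0.31 and −0.22.

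No junction or surface gene other than Tspan18 passed with TGF-β in either genotype. With TGF-β in WT MSCs the 11 others, by the probesets used, changed by −0.11 (Gja5, a connexin of arteries) to 0.24 (Cldn5). Gja4, a second connexin, changed by −0.04, Jam2, a junctional adhesion molecule, by −0.02 and Plvap, the diaphragm protein of fenestrae, by 0.04. Esam, Emcn and Clec14a, further surface proteins of endothelium, changed by 0.07, 0.10 and 0.19. By the probesets used, the 8 enzymes, trafficking and secreted proteins changed by −0.12 (Vwf) to 0.05 in WT MSCs. In p38α∆ MSCs they changed by −0.21 (Nos3) to 0.17 (Mmrn2), and none passed in either genotype. The other Ece1 probeset, at 7.55, changed by 0.25 in WT and 0.32 in p38α∆ MSCs and did not pass. Other Egfl7 probesets gave 0.20 and −0.10 in WT MSCs and did not pass.

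**Figure D4:**
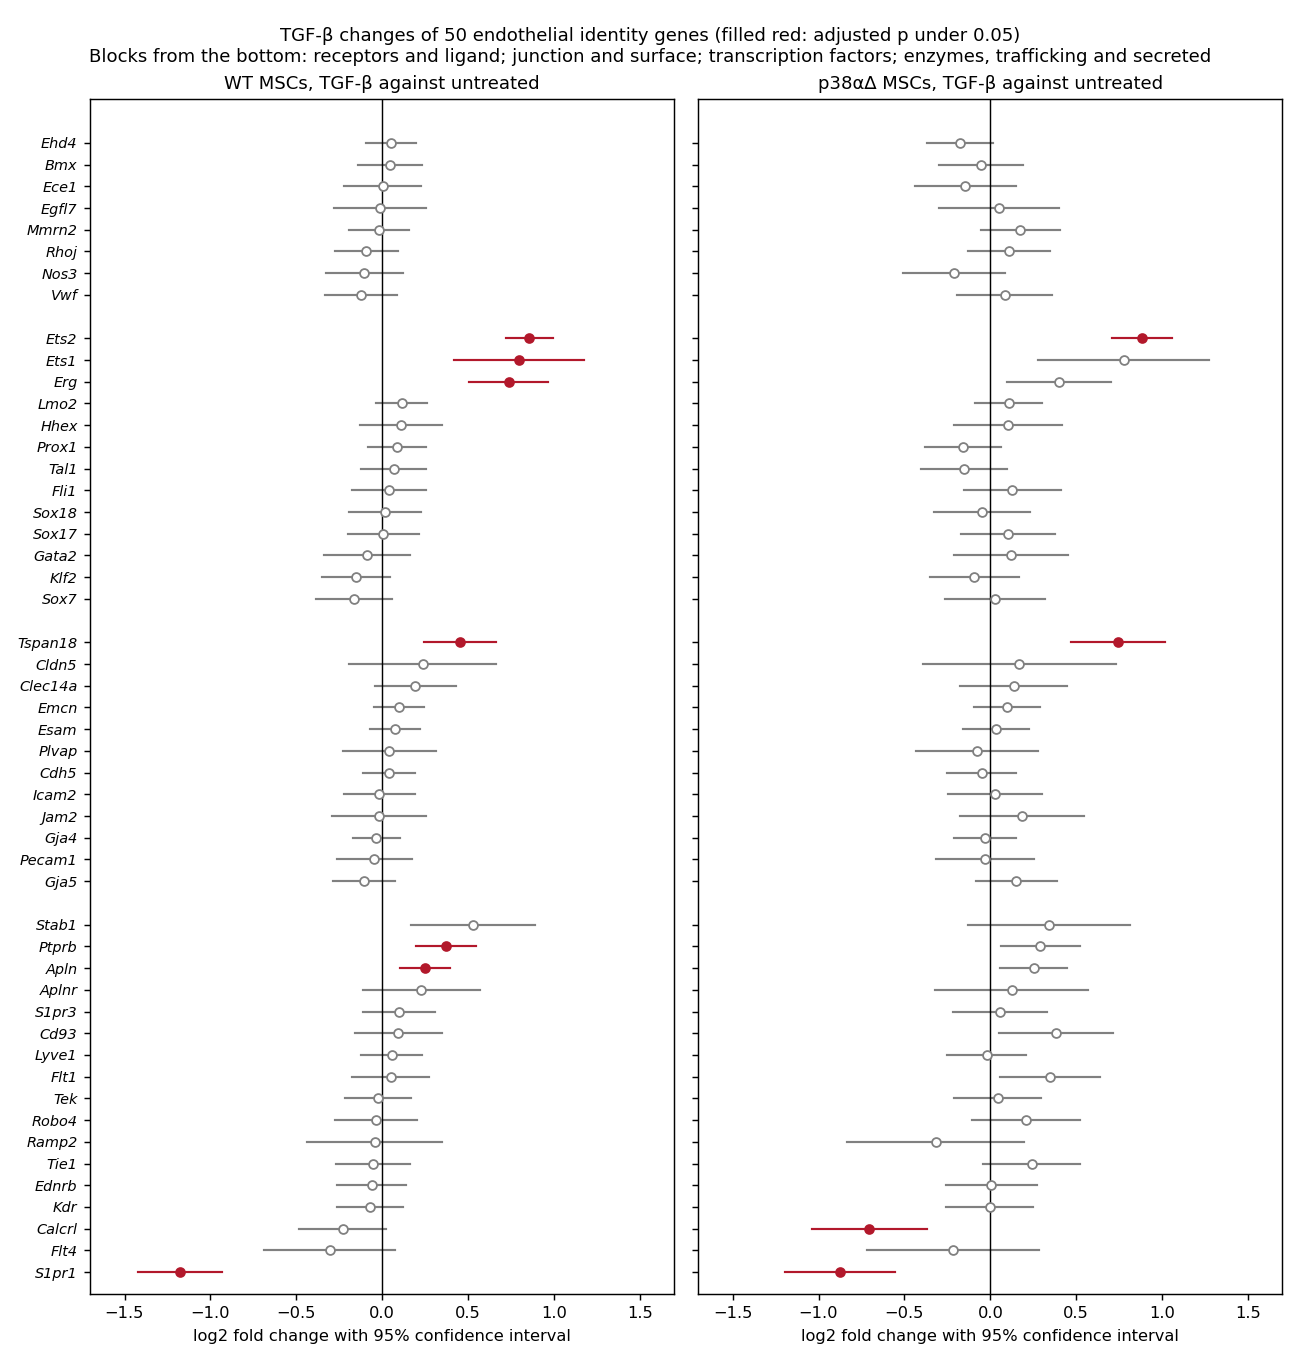
Log2 fold change with TGF-β (horizontal axis) with its 95% confidence interval for each of the 50 members, in WT MSCs (left) and p38α∆ MSCs (right), in blocks by role. Filled red points passed: 7 in WT MSCs and 4 in p38α∆ MSCs, with Ets2, Tspan18 and S1pr1 among both, and the intervals of most other members span 0.

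Between p38α∆ and WT MSCs with TGF-β, no endothelial identity gene passed, against 0.38% of all genes. An unadjusted p under 0.05 in limma was seen for 8 members (16%), against 8.39% of all genes, and the median difference was 0.02 (all genes −0.01). The 3 p38α∆ arrays lay above the 3 WT arrays for 6 members (12%), against 4.67% of all genes, and below them for 3 members (6%), against 3.29%. The 6 were Rhoj, Ehd4, Tspan18, Flt1, Gja5 and Ets2, and the 3 were Erg, Calcrl and Apln. Over all members the difference ran from −0.34 (Erg) to 0.66 (Flt4). Pecam1 and Cdh5 differed by 0.13 and −0.07, Kdr by 0.08, Tek by 0.02 and Tie1 by 0.17 (95% confidence interval −0.08 to 0.42). The study reports Tie1, Cdh5, Flt1 and Pecam1 as higher in p38α∆ MSCs by quantitative PCR after a longer culture. By its account TGF-β raised such markers further there, and it also reports endothelial markers by immunohistochemistry. Cells of these arrays had TGF-β for 20 h, so time and method differ. The WT arrays with TGF-β are the same as those in the TGF-β comparison above.

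Rhoj, a small GTPase of endothelial migration and tube formation, came closest to passing. It read 8.22, 8.41 and 8.31 in WT MSCs with TGF-β and 8.57, 8.90 and 8.92 in p38α∆ MSCs with TGF-β, a difference of 0.48 (SE 0.10, adjusted p = 0.0636 in limma). Without TGF-β its values were 8.36, 8.55, 8.36 and 8.37 on WT arrays and 8.71 and 8.66 on p38α∆ arrays, a difference of 0.28 (adjusted p = 0.969 in limma). All 5 p38α∆ arrays lay above all 7 WT arrays, and the share of all genes with this order was not counted. With TGF-β it passed without the p38α∆ array 1, and also when the arrays were quantile normalized once more.

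Ehd4, a protein of endosome recycling that is not specific to endothelium, gave the same order. It read 6.39, 6.48, 6.36 and 6.46 in untreated WT MSCs and 6.90 and 7.01 in untreated p38α∆ MSCs, a difference of 0.55 (SE 0.08, adjusted p = 0.348 in limma). With TGF-β the WT arrays read 6.47, 6.43 and 6.50 and the p38α∆ arrays 6.66, 6.90 and 6.85, a difference of 0.32 (SE 0.08, adjusted p = 0.135 in limma). Again each p38α∆ array was above each WT array, and within number 1 and 3 the untreated difference was 0.51 and 0.53.

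Tspan18 with TGF-β was higher in p38α∆ MSCs by 0.47 (SE 0.11, adjusted p = 0.126 in limma), and its second probeset gave 0.36. Flt1 with TGF-β read 3.34, 3.28 and 3.53 on WT arrays and 4.04, 3.78 and 3.66 on p38α∆ arrays, a difference of 0.44 (SE 0.12, adjusted p = 0.194 in limma). Of the other Flt1 probesets, that at 4.86 gave 0.25 and that at 3.77 gave −0.07. Flt4, the VEGF-C receptor of lymphatic vessels, gave the largest difference, 0.66 (SE 0.20, adjusted p = 0.291 in limma), with 6.34, 5.31 and 5.84 on WT arrays and 7.03, 6.17 and 6.38 on p38α∆ arrays. Its groups overlap, since the WT array 1 lies above 1 of the p38α∆ arrays.

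**Figure D5:**
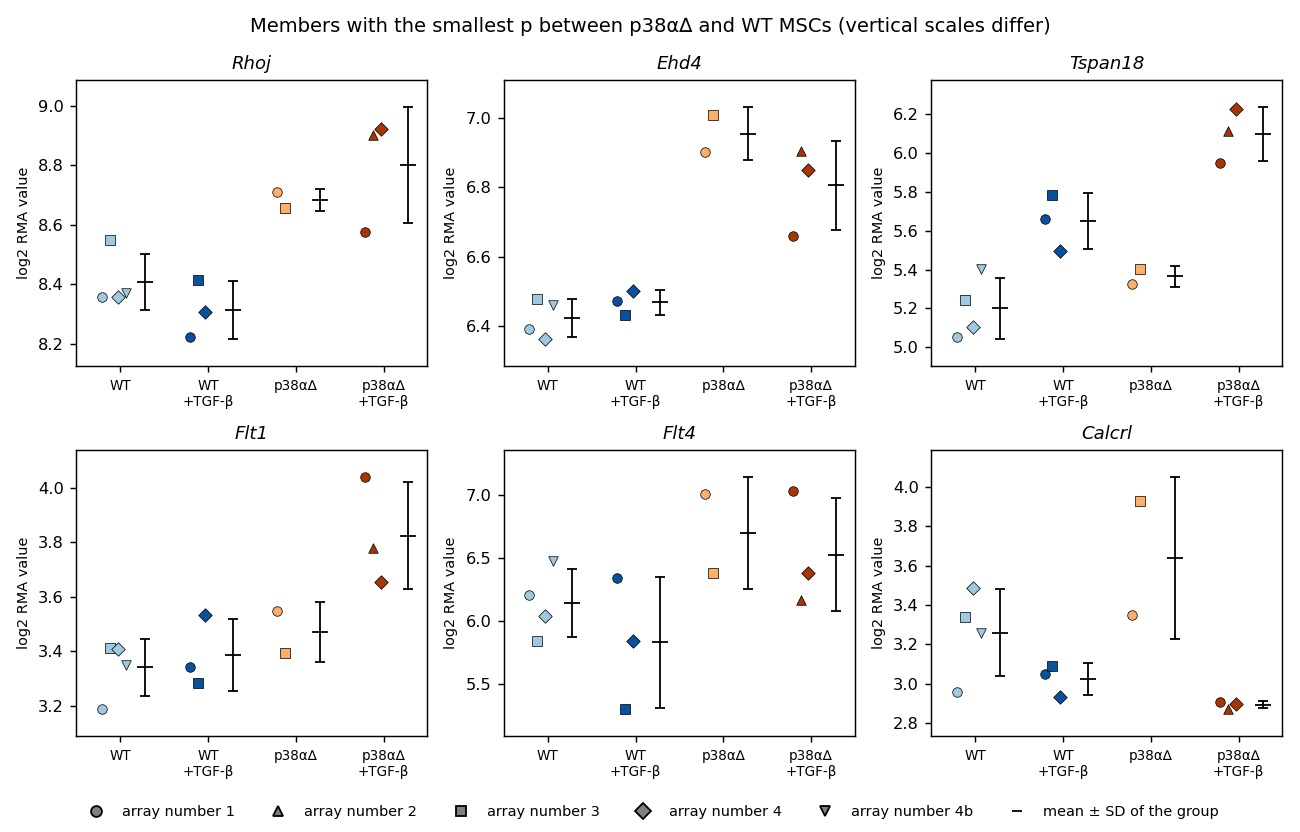
Log2 RMA values (vertical axis, scales differ) in the 4 groups of 6 members with small p-values between p38α∆ and WT MSCs, with or without TGF-β, with 1 symbol for each array (its shape gives the number in the title) and the group mean ± SD beside the symbols. For Rhoj and Ehd4 all 5 p38α∆ arrays lie above all 7 WT arrays, an order not counted over all genes, while none of the 6 members passed.

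In untreated MSCs no member passed between p38α∆ (n = 2) and WT (n = 4), and neither did any gene (0%). An unadjusted p under 0.05 in limma was seen for 4 members (8%), Ehd4, Rhoj, Calcrl and Flt4, against 4.94% of all genes. Both p38α∆ arrays lay above all 4 WT arrays for 2 members (4%), Ehd4 and Rhoj, against 3.28% of all genes, and below them for none, against 2.61%. Calcrl differed by 0.39 and Flt4 by 0.57 (adjusted p = 0.969 in limma for each), with 7.01 and 6.38 for Flt4 in p38α∆ MSCs and 6.21, 5.84, 6.04 and 6.48 in WT MSCs.

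Whether TGF-β acted differently in the 2 genotypes was tested as the difference between the responses. It passed for no member and for no gene (0%), and 1 member, Calcrl, had an unadjusted p under 0.05 in limma (2%, against 5.38% of all genes). Erg, with a smaller response in p38α∆ MSCs, and Tspan18, with a larger one (difference 0.29, 95% confidence interval −0.06 to 0.64), were therefore not shown to differ, nor shown to act alike.

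A wider list of 49 genes with known roles in endothelium, 47 of them measured, moved in both directions with TGF-β. In WT MSCs 4 rose, Tbx3 (0.87), a transcription factor, the semaphorin and VEGF coreceptor Nrp1 (0.86), the Notch ligand Jag1 (0.36) and the protein C receptor Procr (0.36). There 6 fell: Hey1 (−1.06), a Notch target, Thbd (−0.95), the thrombin cofactor, Efnb2 (−0.63) and Ephb4 (−0.47), the ligand and receptor that mark arteries and veins, Nrp2 (−0.42), the VEGF-C coreceptor, and Cd34 (−0.40), a sialomucin of progenitors. The other 37 did not pass. This is 8.51% higher and 12.8% lower, against 4.51% and 5.32% of all genes. In p38α∆ MSCs Mcam (1.04), an adhesion molecule that pericytes share, and Tbx3 (0.85) rose, Hey1 (−1.31), Efnb2 (−0.73), Nrp2 (−0.56) and Ephb4 (−0.51) fell, and 41 did not pass, which is 4.26% higher and 8.51% lower, against 3.4% and 4.92% of all genes. Between p38α∆ and WT MSCs with TGF-β, Mcam (1.14) and Thbd (0.80) were higher, none was lower and 45 did not pass (4.26% higher, against 0.316% of all genes). The list was written with earlier results known, so these shares are a description. Along with the members, markers of MSCs and pericytes moved too: of 17 measured, 2 rose (11.8%, against 4.51% of all genes) and none fell in WT MSCs, and 3 rose (17.6%, against 3.4%) and 1 fell (5.88%, against 4.92%) in p38α∆ MSCs with TGF-β. Between p38α∆ and WT MSCs with TGF-β, 2 of the 17 were higher (11.8%, against 0.316% of all genes), Mcam (1.14), which is on both lists, and the smooth muscle actin Acta2 (0.95). Of the 17, 41.2% had an unadjusted p under 0.05 in limma, against 8.39% of all genes. Acta2 (3.97) and Mcam (4.57) lay below the median of all genes (4.80). For Acta2 the study reports the other direction, lower in p38α∆ MSCs, by quantitative PCR after a longer culture and by immunoblot. These genotype differences of the markers stand beside those of Rhoj, Ehd4, Tspan18 and Flt1 given above. The median level of these 17 markers was 5.92 to 6.10 on untreated WT arrays, 5.85 to 6.34 on treated ones, 5.86 to 6.26 on untreated p38α∆ arrays and 5.58 to 6.38 on treated ones, and their part in the members' changes and genotype differences was not tested. No leukocyte marker passed in any contrast, and of the epithelial markers only Krt19 did, with a fall of −0.65 in WT MSCs.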

How the data were processed

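The authors normalized 12 Affymetrix arrays with RMA, and the deposited values, used without further scaling, are on a log2 scale with 1 value per probeset. Scanning batches, for which the study's methods adjust, and tool versions are not given in the sources read here. Of 45101 rows, 64 control probesets were left out. By the platform annotation, which can be old, 28898 probesets have 1 gene symbol, 551 have several and 15588 have none, and genes were named from the first kind only. For each gene the probeset that varied most (highest median absolute deviation) was used, and all probesets were fitted as well.

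Groups were taken from the array titles and compared with limma 3.58.1 (R 4.3.3) in 1 fit with array number as a random block (correlation 0.52), two-sided, with Benjamini-Hochberg adjustment over 17097 genes. The fit was tested on simulated data. Over all probesets the WT arrays 4 and 4b correlated at 0.9973, arrays 3 and 4 at 0.9971, and the treated p38α∆ arrays 2 and 4 at 0.9967. Values this close cannot tell whether 4b is a repeat of 4, and all were kept as separate arrays. With 4 and 4b averaged, 6 members passed with TGF-β in WT MSCs, and Apln no longer did (adjusted p = 0.0673 in limma). Values in every array are given for members that passed, for Pecam1, Cdh5, Tie1, Tek, Kdr and Nos3, and for the 3 members with the smallest p in contrasts with few calls (Rhoj, Ehd4, Tspan18, Calcrl and Erg). Those of Stab1, Flt1 and Flt4 were added after they were seen. Members and lists were chosen with earlier results of these data known, so a list is described by counts beside all genes and not tested. Alternatives were the block, the probeset, a level filter, the normalization, the variance model and leaving out arrays.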

Additional observations from a re-analysis of the deposited data

Results flagged for a closer look

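Among the 4 untreated WT arrays, each of the 50 members was looked at for 1 array far from the other 3, and 2 had one, where chance gives about 1 in 20. Sox7, a SOXF transcription factor, read 3.69 on array 1 and 3.12 to 3.16 on the others. Rhoj read 8.55 on array 3 and 8.36 to 8.37 on the others, and still lay below every p38α∆ array.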

How the results depend on the processing

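The number of arrays, 2 to 4 in a group, limits all calls. The 7 members that passed with TGF-β in WT MSCs became 4 without a replicate block (Erg, Ets2, Ptprb and S1pr1), 3 to 8 on leaving out 1 array, and 5 to 7 in the other settings. In p38α∆ MSCs it was 3 to 6 in 21 settings. Between p38α∆ and WT MSCs with TGF-β it was 0, except 1 (Rhoj) when the arrays were quantile normalized once more, and from 0 to 1 on leaving out 1 array (1 without the p38α∆ array 1). It was 0 throughout for untreated MSCs and for the difference of the responses. The causes were not tested. The number of all genes that passed with TGF-β between genotypes ranged from 4 to 138 around 65. Same-numbered arrays deviated together for number 1 (r from 0.70 to 0.86) and number 3 (0.69 to 0.81) but less for number 4 (0.07 to 0.36), where not every pair was above 0.1. Deviations were taken from the group mean, so in untreated p38α∆ MSCs (n = 2) that of array 3 mirrors that of array 1. The r for number 3 is therefore not separate from the shift of number 1. The correlation of the block was 0.52, and 0.11 without the arrays numbered 1. The numbers entered the fit as a random block, and the labels do not say what they stand for. With the replicate block as a fixed term, 6 members passed in WT and 5 in p38α∆ MSCs (Ets1 added). Ets2 and S1pr1 passed in WT MSCs, and Ets2 and Tspan18 in p38α∆ MSCs, in every setting run, S1pr1 in p38α∆ MSCs in all but the fit without a replicate block (adjusted p = 0.0799 in limma), and Erg in WT MSCs in all but that with the probeset of highest mean. No change reversed. The TGF-β response of p38α∆ MSCs could not be fitted on their arrays alone with the block, and the difference of the responses uses all groups in any case.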
